A study of Mus musculus with 30 samples.

Results

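The genes of bile acid transport and sensing were followed in the mouse colon. They were chosen by name, by a rule that holds no measured value, as the genes that take up, carry and export bile acids in intestinal cells and the receptors and hormone that respond to them: Slc10a2, Fabp6, Slc51a, Slc51b, Abcc3, Nr1h4, Nr1i2, Vdr, Gpbar1 and Fgf15. They are 10 of the 46078 genes in the count table. RNA-seq had been run on colon tissue, distal colon by the study's methods, from 30 C57BL/6J mice that were 5 to 6 weeks old at the start, with 1 library per mouse. There were 5 groups of 6 mice. Both sexes ate a control diet with 10% of its energy from fat (CD F for females, CD M for males) or a high-fat diet with 60% (HFD F and HFD M) for 13 weeks. These 4 groups were given vehicle, and the fifth, HFD+E2 M, was made up of males on the high-fat diet given estradiol (E2) at 0.5 mg/kg. Vehicle and E2 were injected into the peritoneum 9 times over the last 3 weeks. No mouse carried a transgene or deletion by the labels, the females had their ovaries, and no female received E2 in these libraries.

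Bile acids are made from cholesterol in the liver, released into the gut and recovered, mostly in the ileum, by an apical sodium-dependent transporter, a cytosolic binding protein and a basolateral exporter. The part that escapes is changed by bacteria in the colon, where it meets nuclear receptors and a membrane receptor that sense bile acids. In the ileum the nuclear receptor Nr1h4 (FXR) switches on the hormone gene Fgf15, which lowers bile acid synthesis in the liver, and it lowers uptake through Slc10a2.

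The libraries held 8667177 to 17243712 counts on genes, with a median of 11530916. Of the defining markers of colon, the 6 posterior Hox genes summed to between 206 and 321 TPM (transcript levels scaled for length and library) in all 30 libraries. The colonocyte gene Slc26a3 averaged 225 ± 87.6 TPM (SD, n = 30), while Slc9a3, another of the colonocyte markers, was listed at 0.0141 TPM on average. The Paneth cell genes Defa24 and Defa17 had 0 counts in every library, and the 4 hepatocyte genes summed to at most 2.67 TPM. Genes of squamous epithelium stood apart: they summed to over 100 TPM in HFD F replicates 1, 3, 4 and 5 and in HFD M replicates 2 and 4, with 1375 TPM as the highest value, and to at most 16.4 TPM in the other libraries. In whole tissue, fewer cells of a type and less RNA per cell cannot be told apart.

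Colon expressed the nuclear receptors of bile acids at high levels and the ileal uptake and hormone genes at low levels or not detectably. Over the 30 libraries the vitamin D receptor gene Vdr averaged 87.2 ± 12.9 TPM (SD, n = 30), above 98.6% of all genes. Abcc3, which encodes a basolateral exporter of conjugated organic anions, averaged 41.0 ± 8.01 TPM, Nr1i2, the gene of the xenobiotic receptor PXR, 31.8 ± 4.03 TPM, and Nr1h4 21.3 ± 5.49 TPM. The transport genes Slc51b, Fabp6 and Slc10a2 followed at 7.16 ± 2.50, 5.34 ± 3.75 and 3.46 ± 2.21 TPM. Gpbar1, the gene of the membrane bile acid receptor TGR5, reached 0.240 ± 0.167 TPM.

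**Figure D1:**
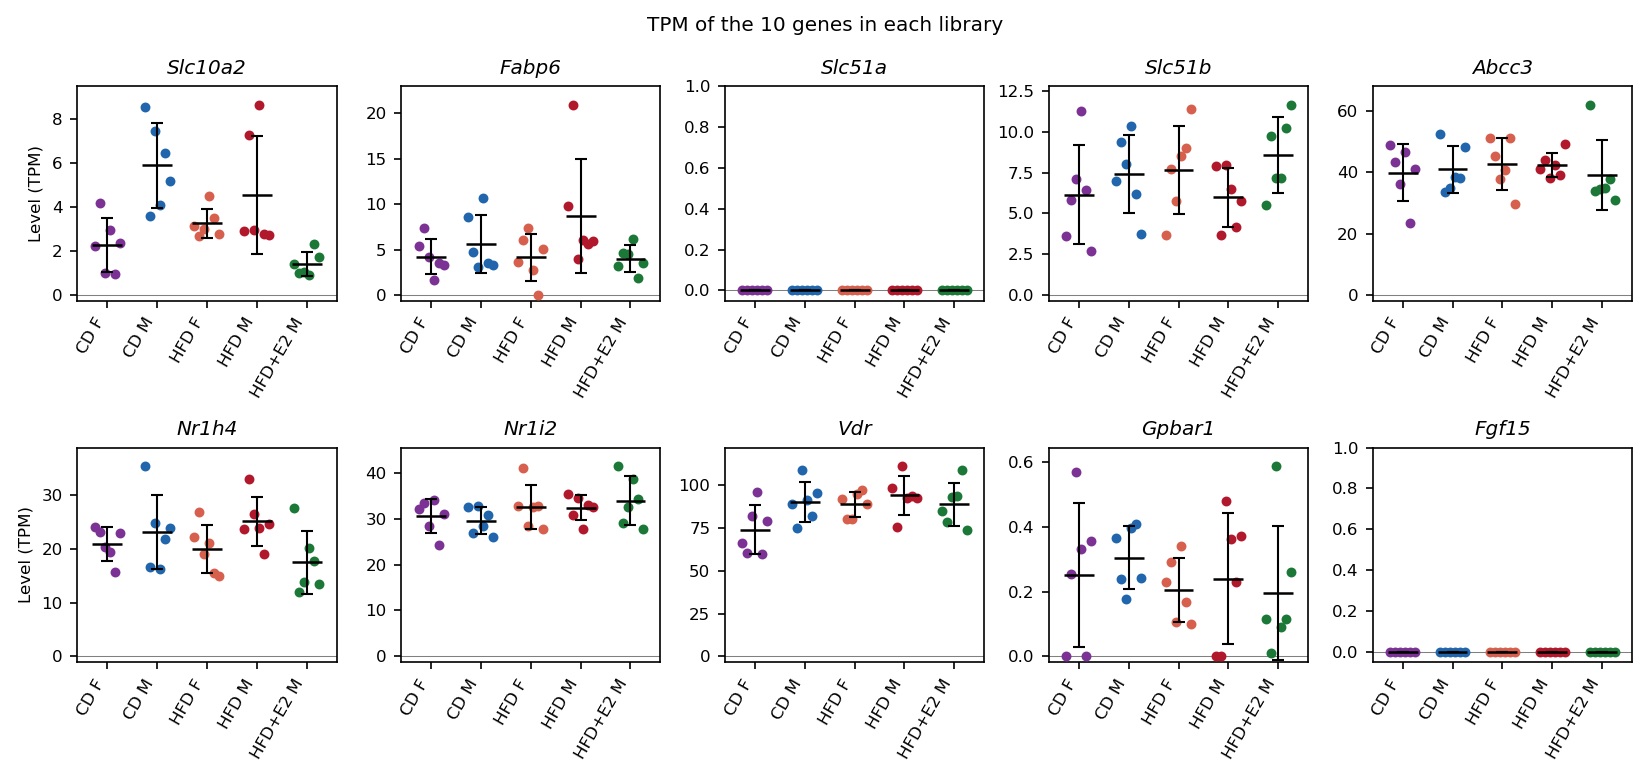
Level in TPM (y axis, linear, a scale of its own in each panel) of the 10 genes in each of 6 libraries per group (points, x axis), with the mean and SD in black. Vdr lies between 59.6 and 111 TPM in all 30 libraries, and Slc51a and Fgf15 are listed at 0 TPM in all of them.

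Fgf15 (chromosome 7, 144896532 to 144900953, plus strand, mm10) had 0 counts in all 30 libraries. In a single library a count of 0 allows up to 3 counts, which correspond to 0.174 to 0.346 CPM (counts on the gene relative to the library's total) across the libraries, counting error only. Nr0b2, which encodes the repressor SHP and is another classical target of Nr1h4, also had 0 counts in every library. The antisense gene Gm26793, which overlaps Fgf15, had 0 counts as well.

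The subunits of the basolateral exporter OST differed in level. Slc51a (chromosome 16, 32475522 to 32487879, minus strand) had 5 counts in all, with 1 in a CD F library, 1 in an HFD F library and 3 in an HFD+E2 M library, and the remaining 27 libraries were at 0. Slc51b (chromosome 9, 65412753 to 65422773, minus strand), the gene of its partner subunit, had between 14 and 70 counts in every library. By GENCODE M21, 91 of its exon bases are shared with Rasl12 on the opposite strand, and 567 exon bases of Slc51a with Pcyt1a. The GENCODE gene of Slc51a starts at 32474504, and Pcyt1a ends at 32475070. The overlap with Pcyt1a thus lies outside the Slc51a positions given here from the deposited files. The kit keeps the strand, but whether the counting used it is not given in the sources used here.

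RefSeq promoters (GRCm38.p6) were at hand for 8 of the 10 genes, but not for Abcc3 and Fgf15. They are shown for Slc10a2, which differed most between groups, and for the pair Slc51b and Slc51a, which are needed together but differed in level. Only bases upstream of both the RefSeq start and the GENCODE gene are printed, in the direction of the gene, which is on the minus strand in each case: chr8:5105352-5105537 for Slc10a2, chr9:65422956-65423023 for Slc51b and chr16:32487880-32488129 for Slc51a. Capitals mark the nuclear receptor hexamer AGGTCA or its reverse complement.
Slc10a2: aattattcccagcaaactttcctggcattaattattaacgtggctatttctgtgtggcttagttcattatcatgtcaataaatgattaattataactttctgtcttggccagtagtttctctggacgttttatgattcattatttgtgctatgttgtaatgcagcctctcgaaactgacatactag
Slc51b: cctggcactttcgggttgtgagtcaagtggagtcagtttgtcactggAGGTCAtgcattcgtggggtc
Slc51a: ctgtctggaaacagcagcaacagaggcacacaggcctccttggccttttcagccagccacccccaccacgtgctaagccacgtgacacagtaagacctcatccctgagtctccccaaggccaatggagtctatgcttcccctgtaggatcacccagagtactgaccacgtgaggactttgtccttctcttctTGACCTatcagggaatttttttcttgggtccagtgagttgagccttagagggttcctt

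AGGTCA was searched on both strands of windows from 250 bases before to 50 bases after each start. It occurred in the windows of 3 of the 8 genes, Nr1h4, Slc51a and Slc51b, and in 16.3% of all 32851 promoters of the table. Its inverted repeat with 1 base between, AGGTCANTGACCT, the arrangement known for Nr1h4 with its partner Rxra, was in 3 promoters of the table and in none of the 8 genes. The direct repeat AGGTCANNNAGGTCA, known for Vdr and Nr1i2 with Rxra, was in 2 promoters of the table and in none of the 8. The repeats contain the hexamer, so these searches overlap. Exact matches to either repeat are so rare in the table that their absence from 8 genes carries no information. The matches describe letters in these windows and nothing about binding.

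The apical uptake gene Slc10a2 (ASBT; chromosome 8, 5085623 to 5105232, minus strand) was lower in females than in males on the control diet, and lower in E2-treated than in vehicle-treated males on the high-fat diet. In CD F its counts were 18 at the lowest, 31 at the median and 64 at the highest. In CD M they were 53, 82.5 and 143. In HFD F they were 38, 51 and 74. The CD M libraries were the high ones, and the 6 females on the control diet all lay below the CD M median.

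In HFD M the Slc10a2 counts were 33, 50 and 112 at the lowest, median and highest. In HFD+E2 M they were 19, 22.5 and 37. All 6 E2-treated males lay below the median of the vehicle-treated males in log2 CPM, and the ranges of these groups overlapped slightly. In CPM, HFD M replicates 2 and 4 were at 8.73 and 10.2 and the other 4 HFD M libraries between 2.87 and 4.27. The HFD M libraries were thus split, and the high pair was the pair in which genes of squamous epithelium summed to over 100 TPM. In HFD F, replicates 1, 3, 4 and 5, also over 100 TPM, were at 4.16 to 5.93 CPM, and replicates 2 and 6 at 3.29 and 3.82. Neither split was tested.

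**Figure D2:**
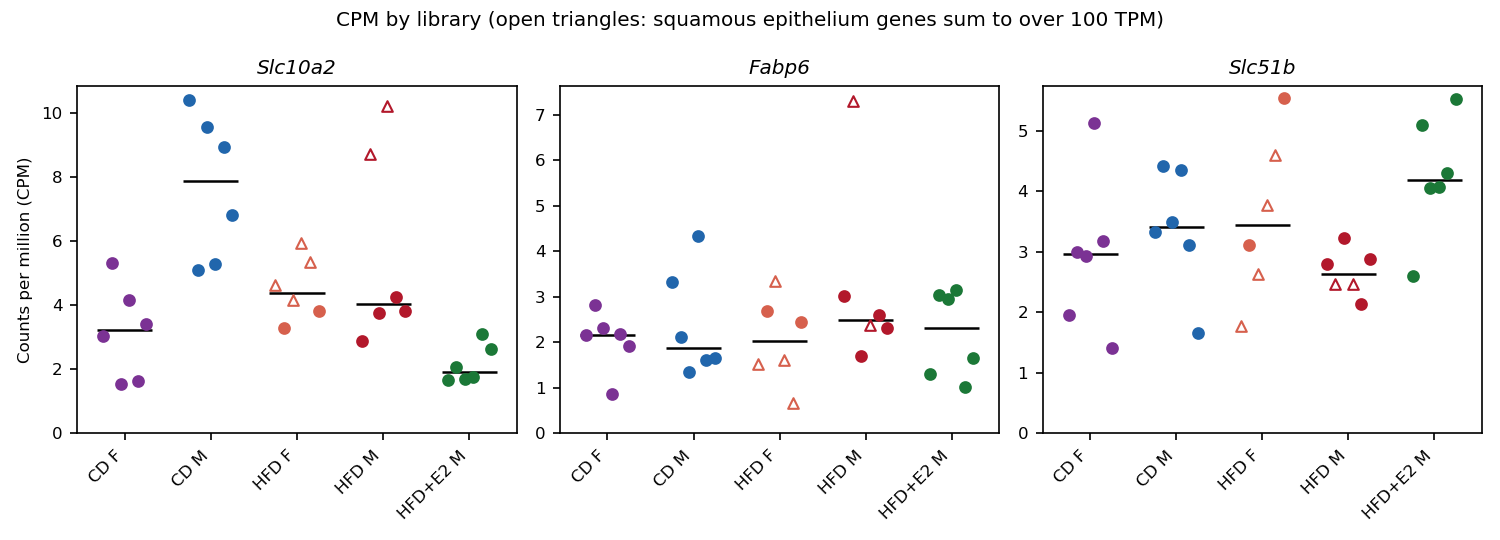
CPM (y axis, from 0) of Slc10a2, Fabp6 and Slc51b in each library by group (x axis), with the group median as a black line. Open triangles are the 6 libraries with over 100 TPM of squamous epithelium genes, and in HFD M the 2 open triangles hold the highest Slc10a2 values, 8.73 and 10.2 CPM.

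Slc10a2 in CD F was 0.410 times that in CD M, a log2 fold change of -1.29 ± 0.28 (SE) with an adjusted p of 0.0176 in edgeR's quasi-likelihood test with Benjamini-Hochberg adjustment over 14922 genes. It was the member called in this comparison, 1 of the 7 that passed the filter on low counts (edgeR's filterByExpr, which asks for enough counts in as many libraries as a group holds), against 2.92% of all genes tested called at an adjusted p under 0.05. At the study's threshold, taken as an unadjusted p under 0.05 and an absolute log2 fold change over 0.4, it was again the member called, against 9.15% of all genes. An exact permutation test on log2 CPM, two-sided and with 6 mice in each group, gave p = 0.00433. The adjusted p rose to 0.0515 without CD M replicate 3, the library with 143 counts, while the log2 fold change stayed between -1.49 and -1.14 whichever of the 12 libraries was left out.

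Genes of several cell types moved in the same comparison. The 10 smooth muscle genes were each lower in CD F at the study's threshold, 6 of them with an adjusted p under 0.05, and summed to 2635 to 4089 TPM in CD F and 4147 to 6888 TPM in CD M. Of 6 fibroblast genes 3 were lower, among them Col1a2 with a log2 fold change of -0.61 and an adjusted p of 0.00423. Of 10 B cell genes 5 were higher at the study's threshold, and the list summed to 15.2 to 64.8 TPM in CD F and 0.757 to 51.5 TPM in CD M. Of 9 colonocyte genes 3 were lower at the study's threshold, with sums of 774 to 1260 TPM in CD F and 1017 to 2082 TPM in CD M. With the mean level of a list as a covariate, the log2 fold change of Slc10a2 was -1.66 for smooth muscle, with an adjusted p of 0.0483. It was -1.20 for B cells, with an adjusted p of 0.158, and -1.16 for colonocytes, with an adjusted p of 0.0755. For squamous epithelium it was -1.23, with an adjusted p of 0.0562, and for posterior Hox genes -1.27, with an adjusted p of 0.0133. Over the 14 alternatives other than leaving out 1 library, these 5 included, the adjusted p ran from 0.000613 to 0.158 and was under 0.05 in 8. Goblet cell and enteroendocrine genes were higher in CD F at the study's threshold, 4 of 6 in each list. The part of these cell types in the result was not tested.

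After E2, Slc10a2 was 0.371 times the level of vehicle-treated HFD M, a log2 fold change of -1.43 ± 0.32 (SE). It passed the study's threshold, but its adjusted p was 0.389 over 15010 genes in edgeR's test. DESeq2, the tool used in the study, gave a log2 fold change of -1.43 with an adjusted p of 0.0207, the lowest over the alternatives, whose adjusted p reached 0.850. The exact permutation test on log2 CPM gave p = 0.00433. Without HFD M replicates 2 and 4 the log2 fold change was -0.82, with an adjusted p of 0.837 in edgeR's test, so that the difference was smaller but still past the study's threshold. That setting was chosen after seeing the data. Squamous epithelium genes summed to a median of 2.41 TPM in HFD+E2 M, with no library over 100 TPM, and reached 489 TPM in HFD M.

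Slc51b was higher after E2 at the study's threshold, but not after adjustment. Its counts in HFD M were 40, 26, 38, 27, 28 and 25 in replicates 1 to 6, and in HFD+E2 M 30, 52, 70, 49, 51 and 50. In CPM, 5 of the 6 E2-treated libraries, at 4.06 to 5.52, lay above all 6 vehicle-treated ones, which reached 3.23. The log2 fold change was 0.63 ± 0.21 (SE), past the study's threshold, with an adjusted p of 0.455 in edgeR's test. The exact permutation test on log2 CPM gave p = 0.0130, and on log2(TPM + 0.1) it gave p = 0.0693. The overlapping gene Rasl12 had a log2 fold change of -0.08 in this comparison. In CD F against CD M, where Rasl12 fell by 0.62 with an adjusted p of 0.0240, Slc51b was at -0.20 ± 0.30 with an adjusted p of 0.827. Whether reads of Rasl12 entered the Slc51b counts was not tested. In the other comparisons Slc51b was at 0.38 in HFD F against HFD M, 0.27 in HFD F against CD F and -0.31 in HFD M against CD M. None of these passed either threshold.

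Slc10a2 and Slc51b were the members past the study's threshold after E2, 2 of the 7 tested, against 5.87% of all genes, and with adjusted p under 0.05 there were 0 of 7, against 0.00666% of all genes. DESeq2 called 1 of them, Slc10a2, at an adjusted p under 0.05, against 0.182% of the genes given to it without the filter. Without adjustment, 2 of the 7 had p under 0.05 in edgeR's test, against 10.2% of all genes. Of the 7 members, 4 had a positive log2 fold change and 3 a negative one, with a median of 0.01 beside 0.00 over all genes tested. Goblet cell and enteroendocrine genes also moved after E2: 3 of 6 in each list were higher at the study's threshold. Their part in the result was not tested.

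**Figure D3:**
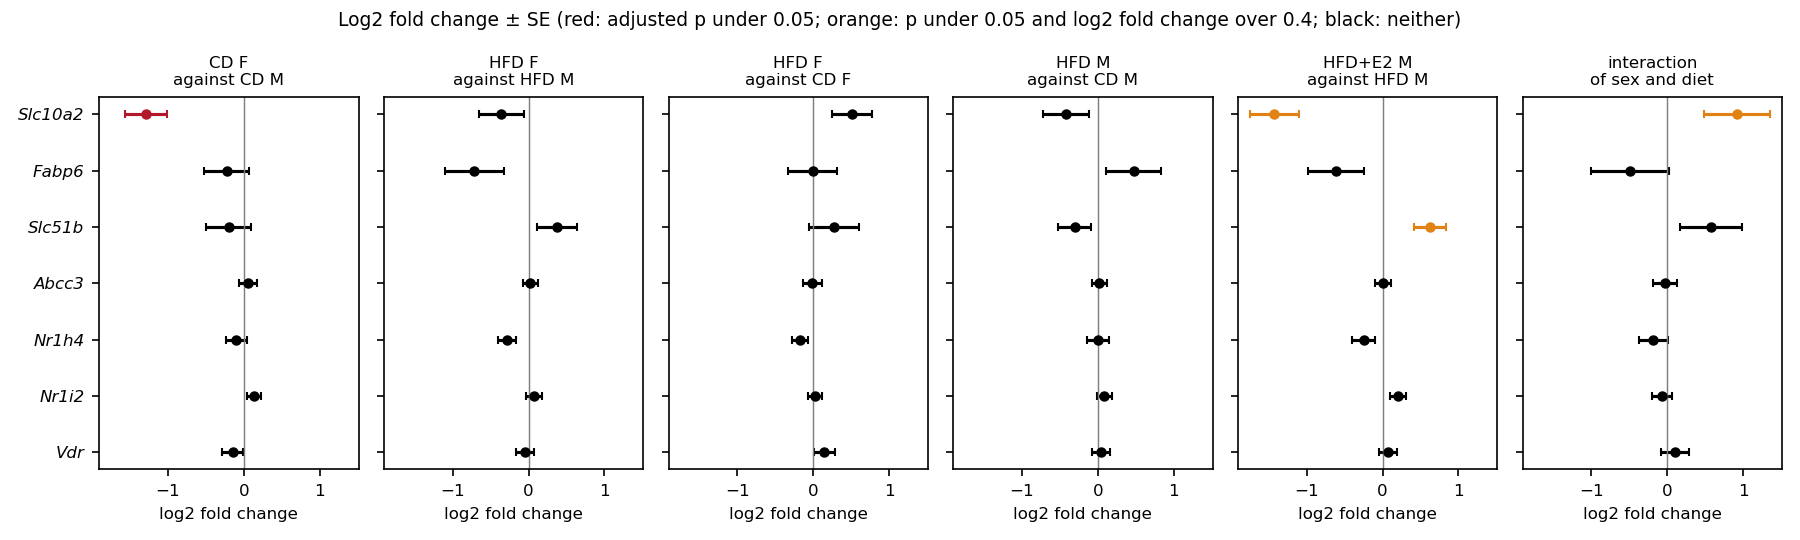
Log2 fold change ± SE (x axis) of the 7 genes past the filter (y axis) in the 5 comparisons and the interaction of sex and diet (panels). Slc10a2 in CD F against CD M is the only red point (adjusted p under 0.05), and Slc10a2 and Slc51b after E2 and Slc10a2 in the interaction are orange (study's threshold only).

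On the high-fat diet, Slc10a2 did not pass either threshold between the sexes or against the control diet. The log2 fold change was -0.36 ± 0.30 (SE) in HFD F against HFD M, with an exact permutation p of 0.485. HFD F against CD F gave 0.51 ± 0.27 with a permutation p of 0.0887, and HFD M against CD M gave -0.42 ± 0.31 with a permutation p of 0.165. The responses to the diet thus had opposite signs in the sexes. The difference between them, female minus male, was 0.92 ± 0.43 on the log2 scale, with an adjusted p of 0.727 over 15800 genes in edgeR's interaction term. It was 1 of 7 members past the study's threshold, against 5.18% of all genes. With 1 of the 24 libraries left out it ran from 0.78 to 1.17 and passed in 11 of 24 fits. It did not pass without CD F replicate 1, 3, 5 or 6, CD M replicate 1, 3 or 5, HFD F replicate 4 or 5, or HFD M replicate 1, 3, 5 or 6. Without CD F replicate 4, Slc51b passed as well.

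These estimates moved with the squamous libraries. Without libraries with over 100 TPM of squamous epithelium genes, HFD M against CD M gave -1.03, past the study's threshold, with an adjusted p of 0.420 in edgeR's test, HFD F against CD F 0.19 and HFD F against HFD M -0.08. The interaction was then 1.21. In HFD F this leaves 2 libraries. With a single library left out, Slc10a2 passed the study's threshold in HFD F against CD F without CD F replicate 2 (0.71), CD F replicate 4 (0.62) or HFD F replicate 2 (0.59), and in HFD M against CD M without HFD M replicate 4 (-0.68).

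**Figure D4:**
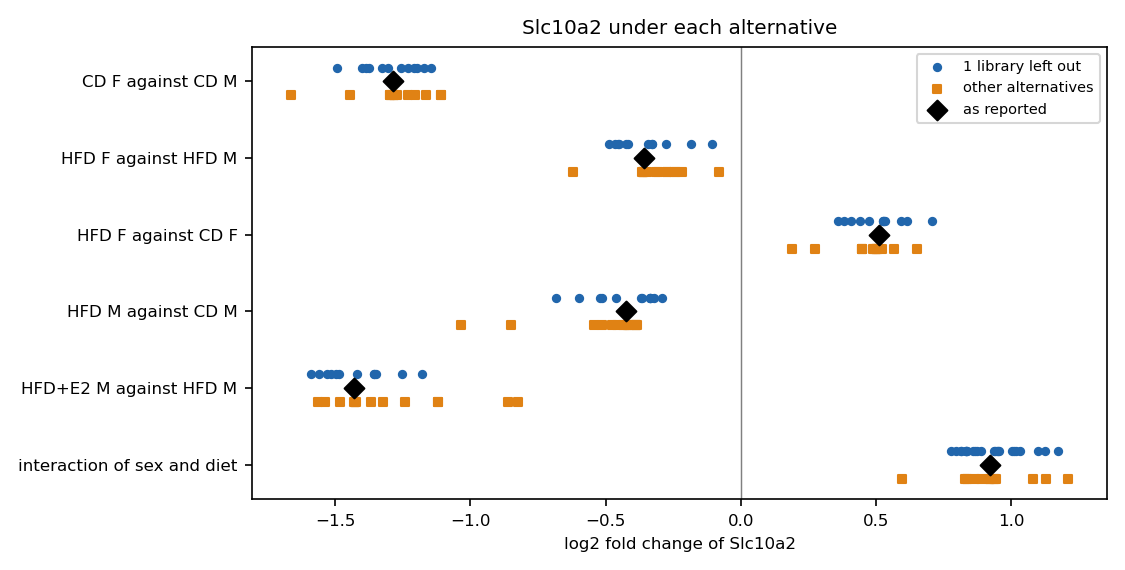
Log2 fold change of Slc10a2 (x axis) in each comparison (y axis) as reported (diamonds), with 1 library left out (circles) and under the other alternatives (squares). In CD F against CD M every value lies between -1.66 and -1.11, and after E2 between -1.59 and -0.82.

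Ordered by mean log2 CPM, Slc10a2 stood at 2.92 in CD M, 2.41 in HFD M, 2.19 in HFD F, 1.62 in CD F and 1.18 in HFD+E2 M. No difference between neighbours in this order was detected: the exact permutation tests gave p = 0.165, 0.485, 0.0887 and 0.188 from the top down. With 6 mice against 6 this does not show that neighbours were equal. On this scale, which uses TMM-scaled library sizes, only the ends, CD M and HFD+E2 M, did not overlap, with an exact permutation p of 0.00216, the smallest that 6 against 6 can give. In CPM without that scaling, HFD+E2 M at 1.65 to 3.12 CPM also lay below HFD F at 3.29 to 5.93 CPM. In a fit of all 30 libraries HFD+E2 M was lower than CD M by 1.84 ± 0.31 (SE) on the log2 scale, with an adjusted p of 0.0105 in edgeR's test. These were among 80 such permutation tests, 8 genes by 10 pairs of groups, with unadjusted p.

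Fabp6 (chromosome 11, 43596049 to 43601540, minus strand) encodes the cytosolic bile acid binding protein of the ileum. In HFD M its counts were 20 at the lowest, 30 at the median and 77 at the highest, and the highest was replicate 2. In HFD+E2 M they were 12, 23 and 51. In the other groups they lay between 7 and 56. The groups overlapped throughout, and HFD M replicate 2, at 7.30 CPM, stood above every other library. The log2 fold change was -0.61 ± 0.37 (SE) after E2, with an adjusted p of 0.532 in edgeR's test, and -0.71 ± 0.39 in HFD F against HFD M, with an adjusted p of 0.872. Without HFD M replicate 2, with its 77 counts, it was -0.19 after E2. On log2(TPM + 0.1) the difference after E2 was -0.96 with an exact permutation p of 0.0281, against p = 0.208 on log2 CPM. The TPM and the counts of this gene differed: HFD F replicate 5 was listed at 0 TPM with 7 counts.

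The exporter gene Abcc3 (chromosome 11, 94343295 to 94392997, minus strand) showed the smallest differences of the 7 genes tested. Medians of the groups lay between 34.7 and 43.1 TPM, and single libraries between 23.5 and 62.0 TPM. Its log2 fold changes in the 5 comparisons ran from -0.01 to 0.05, with standard errors of 0.10 to 0.12. In none of them did the groups separate. It had at least 1019 counts in every library.

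The receptors were also close between groups. Nr1h4 (chromosome 10, 89454234 to 89533585, minus strand) had 38.2, 38.9 and 54.2 CPM at the lowest, median and highest in HFD M, with TMM-scaled library sizes. In HFD F it had 27.3, 33.6 and 41.3 CPM. HFD F replicates were thus mostly lower, with overlap: the log2 fold change was -0.28 ± 0.12 (SE), with an adjusted p of 0.872 in edgeR's test and an exact permutation p of 0.0238, under the fold change that the study required. On log2(TPM + 0.1) the exact permutation test gave p = 0.0758. After E2 the log2 fold change was -0.25 ± 0.15, with an adjusted p of 0.522. Per length the E2-treated males averaged 17.5 ± 5.81 TPM and the vehicle-treated 25.2 ± 4.55 TPM (SD, n = 6 each), and the exact permutation test on log2(TPM + 0.1) gave p = 0.0303, against 0.106 on log2 CPM.

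Nr1i2 (chromosome 16, 38248323 to 38294824, minus strand) had the smallest spread of the members, with a coefficient of variation of 12.7% over 30 libraries. Its counts were 553 to 1264 in HFD+E2 M and 586 to 925 in HFD M, and all 6 E2-treated libraries lay above the HFD M median in log2 CPM. The log2 fold change after E2 was 0.21 ± 0.10 (SE), with an adjusted p of 0.505 in edgeR's test and p = 0.0433 in the exact permutation test. On log2(TPM + 0.1) the permutation p was 0.578. In CD F against CD M it was 0.14 ± 0.09, with an adjusted p of 0.532.

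Vdr (chromosome 15, 97854425 to 97910630, minus strand) also senses the bile acid lithocholic acid. In CD F it ranged from 59.6 to 96.1 TPM around a median of 72.6 TPM. In CD M it ranged from 74.8 to 109 TPM around 90.3 TPM. The females lay lower with much overlap, and on counts the log2 fold change was -0.15 ± 0.14 (SE), with an adjusted p of 0.694 in edgeR's test. Its differences in the other comparisons were between -0.04 and 0.15 on the log2 scale.

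Gpbar1 (chromosome 1, 74278550 to 74279624, plus strand), a gene of 1 exon, did not pass the filter on low counts. It had 97 counts over the 30 libraries, between 0 and 10 in each, and 0 in 2 CD F and 2 HFD M libraries. Group sums were 22 in CD F, 25 in CD M, 16 in HFD F, 17 in HFD M and 17 in HFD+E2 M. The groups overlapped in all pairs, and at these counts no difference was detectable.

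In the 3 comparisons on HFD against CD or between the sexes on HFD, no member passed either threshold. The share of all genes at the study's threshold was 3.09% in HFD F against HFD M, 3.67% in HFD F against CD F and 2.9% in HFD M against CD M. At an adjusted p under 0.05 it was 0.0988%, 0.0199% and 0.0%. Unadjusted, Nr1h4 in HFD F against HFD M was the 1 member with p under 0.05, against 5.09%, 5.68% and 6.03% of all genes in the same order. DESeq2 gave 0 members at an adjusted p under 0.05 in each of these comparisons, against 0.178%, 0.764% and 0.0899% of the genes given to it. Besides Slc10a2, single libraries decided 3 calls at the study's threshold: in HFD F against HFD M Slc51b passed without HFD F replicate 1 (0.53) and Fabp6 without HFD F replicate 3 (-0.89), and in HFD M against CD M Slc51b passed without CD M replicate 6 (-0.45). The comparisons share groups: HFD M is in 3 of the 5 and CD M and CD F in 2 each, so their values are not independent.

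Across the 30 libraries the members did not move as a block. The pairwise Pearson r of log2 CPM ran from -0.49 for Slc51b with Nr1h4 to 0.43 for Abcc3 with Nr1i2. After each group's mean was subtracted they ran from -0.45 for Fabp6 with Vdr to 0.50 for Abcc3 with Nr1i2. Nr1h4 and Slc51b, a known target of it in the ileum, stood at -0.44 within groups, and Nr1h4 and Slc10a2 at 0.37. The points share libraries, depth and tissue makeup, and these r are descriptions.

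**Figure D5:**
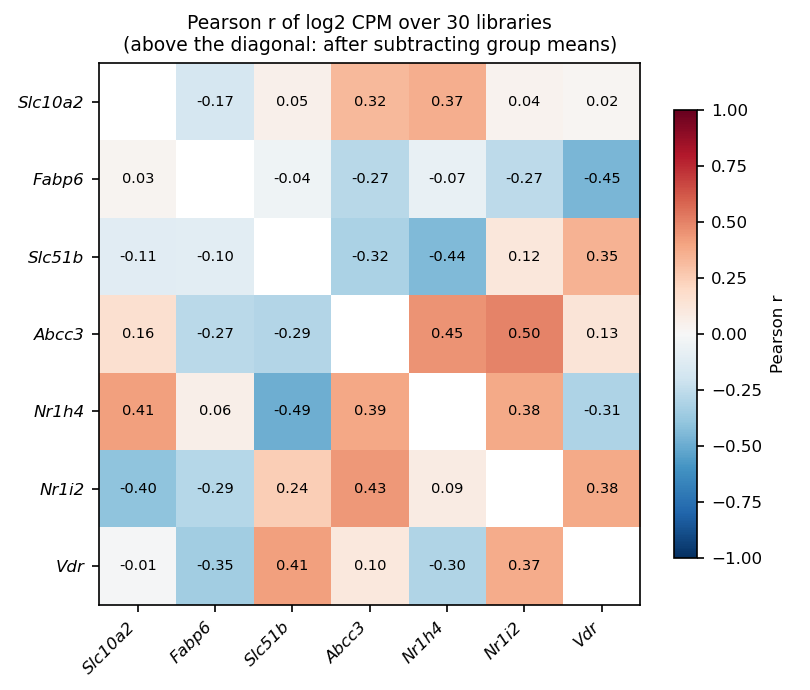
Pearson r (colour, from -1 to 1) of log2 CPM over 30 libraries for each pair of the 7 genes that passed the filter (both axes), as measured below the diagonal and after subtracting group means above it. Abcc3 with Nr1i2 is the highest in both, at 0.43 and 0.50.

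Of the 14914 genes with a mean of at least 1 CPM, those most like Slc10a2 over the 30 libraries were Hgf (r = 0.70), Gp49a (0.70) and Pappa (0.68). The gene most like Nr1h4 was Tlr4, with r = 0.87, the one most like Slc51b was Ctsz, with r = 0.80, and the one most like Abcc3 was Tbc1d22a, with r = 0.79. Nr1i2 was most like Cdhr2 (r = 0.81) and Cyp2d34 (r = 0.78). Vdr was most like Smg6 (r = 0.84), and Fabp6 was most like Pfdn4 (r = 0.69). Against the cell type lists, Slc10a2 had r = -0.70 with the enteroendocrine genes, -0.43 after group means were subtracted. Within groups its r was 0.48 with the fibroblast genes and 0.46 with the squamous epithelium genes. Vdr had r = 0.71 with the posterior Hox genes, and again 0.71 after group means were subtracted.

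The partners and targets of these receptors were present in part. Hnf4a, a transcription factor of gut epithelium, averaged 170 TPM, Nr5a2 17.6 TPM and Rxra, the shared partner of Nr1h4, Nr1i2 and Vdr, 13.9 TPM. Of 12 partners and related receptors, 10 were tested and 0 passed the adjusted threshold in any of the 5 comparisons or the interaction, in edgeR or in DESeq2. Of their 60 results in edgeR, 5 had an unadjusted p under 0.05, against 8.07% of the results of all genes. At the study's threshold Nr1h3 (LXR alpha), a receptor of oxysterols, was higher after E2, by 0.45 on the log2 scale with an adjusted p of 0.455 in edgeR's test. Chrm3, the gene of a muscarinic receptor, was lower in HFD F than in HFD M, at -0.43 with an adjusted p of 0.872.

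Among 11 target genes of Nr1i2 and Vdr, Cyp24a1, which degrades active vitamin D, had 0 counts in every library, while Atp2b1, a calcium pump, averaged 48.3 TPM and Cyp3a13, a cytochrome P450, 52.0 TPM. In CD F against CD M 1 of 8 tested passed the adjusted threshold, against 2.92% of all genes. This was Slc30a10, a manganese exporter, which rose by 2.15 ± 0.43 (SE) on the log2 scale, with an adjusted p of 0.0115 in edgeR's test. At the study's threshold, which 9.15% of all genes passed there, Cyp3a13 was higher by 0.41 and Cyp2b10 was at -0.99. After E2 Slc30a10 was at 2.21 ± 0.56 with an adjusted p of 0.421, while Cyp2b10 was at -1.08 and Cyp3a13 at -0.43. All were past the study's threshold, against 5.87% of all genes. The median over the 8 tested was 0.05 in the first case and 0.11 after E2, beside 0.01 and 0.00 over all genes. Slc30a10 rested on 1 to 77 counts per library.

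In HFD M against CD M, 3 of 7 targets tested were higher at the study's threshold and 1 was lower, against 2.9% of all genes in either direction. Cyp3a13 was at 0.45, Cyp2b10 at 0.66 and the carboxylesterase gene Ces2a at 0.50, and Cyp2c55 at -0.68. None passed after adjustment. In HFD F against CD F, Trpv6, an epithelial calcium channel, was at 0.77 and Slc30a10 at -1.19, past the study's threshold, against 3.67% of all genes. No target passed in HFD F against HFD M. In the interaction Cyp3a13 passed the study's threshold at -0.49, against 5.18% of all genes.

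All 5 receptors and co-receptors of Fgf15 were tested. In CD F against CD M Fgfr1 fell by 0.64 on the log2 scale, with an adjusted p of 0.0106 in edgeR's test. The co-receptor gene Klb and Fgfr3 were at 0.64 and 0.50, past the study's threshold only. Of all genes tested in this comparison, 2.92% passed the adjusted threshold and 9.15% the study's threshold. Of 15 other bile acid and organic anion transporters, 11 were tested there and 1 passed after adjustment: Slco3a1 fell by 0.59, with an adjusted p of 0.0129. Abcb1a, an apical efflux pump, was the most abundant of them at 72.1 TPM. The bile salt export pump gene Abcb11 had 19 counts and the hepatic uptake gene Slc10a1 2 counts over all libraries. In HFD M against CD M, Klb was at 0.46, Slco3a1 at -0.4045 and Abcb1b at 0.52, past the study's threshold, against 2.9% of all genes. In the interaction Fgfr1 was at 0.63 and Slco3a1 at 0.66, against 5.18% of all genes. None of these differences passed after adjustment in edgeR's test. No gene of either list passed in HFD F against HFD M, in HFD F against CD F or after E2.

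The synthesis pathway was detected in part. Cyp7a1, the rate-limiting enzyme of bile acid synthesis, had 0 counts in every library, and Cyp8b1 had 4 counts in all. Cyp27a1, which starts the alternative pathway, averaged 29.3 ± 4.90 TPM (SD, n = 30). The most abundant gene of the list was Scp2, which encodes a peroxisomal thiolase and sterol carrier, at 42.0 ± 8.82 TPM, and the peroxisomal enzyme gene Hsd17b4 averaged 28.1 ± 3.66 TPM. Hsd3b7, Amacr and Cyp7b1 averaged 8.71, 2.13 and 1.48 TPM. Of 13 synthesis and conjugation genes these 6 were tested, and 0 passed the adjusted threshold in any comparison or the interaction, in edgeR or in DESeq2. Of their 36 results in edgeR, 1 had an unadjusted p under 0.05, against the same 8.07% of all results. At the study's threshold Cyp7b1, the oxysterol hydroxylase, was at -0.58 after E2, with an adjusted p of 0.488 in edgeR's test.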

How the data were processed

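RNA came from colon tissue of 30 mice, and libraries were made with a stranded, ribosomal RNA depleting kit. Per the labels and the study's methods, the authors mapped reads to the mouse genome (GRCm38, mm10) with STAR, and deposited raw gene counts from featureCounts without normalization. The authors also deposited TPM values from StringTie, scaled to transcript length and library. Versions of these tools are not given in the sources used here.

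Each comparison was fitted on the raw counts of its 12 libraries, and the interaction on 24, over all genes past filterByExpr, with TMM scaling and a robust quasi-likelihood F-test in edgeR 4.0.16 (R 4.3.3). P-values were adjusted by Benjamini-Hochberg over all genes tested. Log2 CPM used a prior count of 2. The study does not say whether its p under 0.05 was adjusted, and it was read as unadjusted. Single values were compared by exact two-sided permutation tests in scipy 1.17.1, unadjusted. TPM give levels, as mean ± SD over mice. No 2 libraries of a group agreed within counting noise. Intervals and limits from counts cover counting error only, since reads carry no molecular identifiers.

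All members are named, with genes of fixed lists past either threshold, most abundant or at 0, and up to 3 genes most correlated with each member. The members and lists were chosen by gene name, but with earlier results of these data known. Alternatives were DESeq2 1.42.0, its size factors in edgeR, no filter or a minimum of 10 counts per library, a single fit over 30 libraries, scores of 5 marker lists as covariates, log2(TPM + 0.1) and log2(TPM + 1) with limma 3.58.1, the replicate number as a block, and each library left out in turn.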

Additional observations from a re-analysis of the deposited data

Results flagged for a closer look

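In 3 of 35 sets of 6 libraries tested (a gene in a group), 1 library lay apart from the other 5 by Dixon's test, in which the gap to the nearest library is divided by the whole range and compared with the 95% critical value for 6. Chance alone gives such a result in about 1 of 20 sets. Fabp6 in CD F had a ratio of 0.636: replicate 4 had 9 counts, or 0.13 in log2 CPM, while the others lay between 1.02 and 1.53. Slc51b in CD M had a ratio of 0.639, for replicate 6 with 17 counts. Nr1h4 in HFD M had a ratio of 0.744, for replicate 2 with 545 counts, at 5.76 in log2 CPM against 5.26 to 5.39 in the others. That library also had the highest Fabp6 count, 77, and 489 TPM of squamous epithelium genes.

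The response of Slc10a2 to HFD differed between females and males by 0.92 on the log2 scale, female minus male, past the study's threshold in edgeR's interaction term. Its adjusted p was 0.727.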

How the results depend on the processing

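Of 1247 values of single members under the alternatives, judged at an adjusted p under 0.05 (permutation tests at an unadjusted p under 0.05), 1234 kept their side of the threshold, 10 lost a call, 3 gained one and 0 reversed a call. Of those without a call, 98 changed sign. Most of these values had no call to lose. The 1 adjusted call among the fits as reported was Slc10a2 in CD F against CD M. It was kept in 11 of 12 fits with 1 library left out and in 8 of the 14 other alternatives. At an adjusted p under 0.05, the count of members called in CD F against CD M, 1 as reported, was 0 with the replicate block and with the squamous epithelium, B cell or colonocyte score, and 0 to 1 with 1 library left out. Slc10a2 was then at -1.30 with an adjusted p of 0.0652 (replicate block) and -1.23 with 0.0562 (squamous). With limma its adjusted p was 0.101 on log2(TPM + 0.1) and 0.0977 on log2(TPM + 1). After E2, DESeq2 called 1 member in place of 0. At the study's threshold, the smooth muscle score gave 2 in place of 1 in CD F against CD M, adding Nr1h4. In HFD F against HFD M the squamous, smooth muscle and B cell scores gave 1 in place of 0, and leaving out 1 library gave 0 to 1. Leaving out 1 library gave 0 to 1 also in HFD F against CD F and in HFD M against CD M, where the squamous and colonocyte scores gave 1 in place of 0, as did leaving out the squamous libraries. In the interaction the squamous, smooth muscle, B cell and colonocyte scores gave 0 in place of 1, and leaving out 1 library 0 to 2. Slc10a2 passed there in 11 of 24 such fits. The cause was not tested. After E2, Slc10a2 and Slc51b passed the study's threshold in 12 of 12 and 15 of 15 fits each.

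Replicate numbers were not taken as pairs: no label ties same-numbered mice, and the correlation of deviations exceeded 0.1 in 5, 2, 3, 5 and 3 of 6 pairs in the 5 comparisons. In CD F against CD M, 6 of the 12 libraries correlated best with the same-numbered library of the other group, a hint of shared variation from the data only. The block raised the genes called at an adjusted p under 0.05 there from 435 to 941. The block changed no other count of members called. Fabp6, Slc10a2 and Slc51b rest on 7 to 143 counts per library, which limits their precision. Slc51a, Gpbar1 and Fgf15 could not be fitted after the filter.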
